A study of Mus musculus with 4 samples.

Results

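Neat1 and Malat1 are neighbouring genes for nuclear long noncoding RNAs on mouse chromosome 19, and both lay under very wide peaks of PPARγ in alveolar macrophages (AMs). The peaks analysed here were chosen by position from the peak lists of 2 ChIP libraries of 1 group, library 1 and library 2. Peaks overlapping by at least 1 bp were merged, merged regions with a peak from both libraries were called shared, and the shared regions and one-library peaks in the RefSeq gene body of either gene or within 10 kb of it were taken. This gave 11 of 20233 shared regions, 5 at Neat1 and 6 at Malat1, and 16 of 66106 one-library regions, 10 at Neat1 and 6 at Malat1. The genes were selected on these same peaks because of their width and height, so width, fold enrichment and coverage are given as a description without a test.

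The AMs came from WT C57BL/6J mice 9 weeks old and were obtained by bronchoalveolar lavage and cell sorting. The labels give no other allele and no treatment. Chromatin was immunoprecipitated with an antibody to PPARγ and tagged by a transposase while on the beads (HT-ChIPmentation), and each ChIP library was set by the authors against an input library, which is not analysed here. All libraries belong to 1 group, so conditions cannot be contrasted, and the sources used here do not say whether the libraries came from separate mice, so differences between them may be technical. Library 1 held 83787 peaks, of which the median was 182 bp wide with a fold enrichment (ChIP over control at the summit) of 4.44. For the 28535 peaks of library 2 the medians were 285 bp and 5.07. The files hold no read counts, so the depth behind a peak is unknown. A shared region lay in or within 10 kb of 24.6% of 49554 RefSeq genes, and of 12 of 12 AM marker genes, 3 of 5 T and B lymphocyte genes, 1 of 5 epithelial, 1 of 4 endothelial, 1 of 4 neutrophil and 0 of 3 neuronal genes. Expression was not measured in these libraries.

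PPARγ is a nuclear receptor for fatty acids and their derivatives that binds DNA with an RXR partner, classically at 2 copies of AGGTCA in the same direction 1 base apart (a DR1), and AMs depend on it for their development and for the handling of surfactant lipid. Neat1 RNA is the scaffold of paraspeckles, nuclear bodies that hold RNA-binding proteins such as SFPQ and NONO. It exists as a short and a long isoform that begin at the same start site, and the long one builds the paraspeckle. Malat1 RNA gathers in nuclear speckles, the bodies rich in splicing factors. Its 3′ end is made by RNase P, which cuts off a tRNA-like small RNA (mascRNA) and leaves a triple helix in place of a poly(A) tail. Both RNAs are unspliced and abundant in many cell types.

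Sequence under the main peaks is shown in 3 stretches, all written along the minus strand of mm10 (GRCm38), on which both genes are transcribed. The higher summit of the pair in each library is not printed. It was at Neat1 in library 1 (fold enrichment 32.0) and at Malat1 in library 2 (21.5). The RefSeq promoter of Malat1 (chr19:5802623-5802922) is shown because it lies wholly inside the main peak of both libraries, and its capitals mark the first 50 transcribed bases. The 201 bases around the library 1 summit at Malat1 (chr19:5802458-5802658) carry the summit and the 10 bases on either side in capitals. The 201 bases around the library 2 summit at Neat1 (chr19:5843111-5843311) surround the highest point of that library at the gene, and their capitals mark a CEBP word and a nuclear receptor half-site, written here as TGACCT, the reverse complement of AGGTCA.
Malat1 promoter: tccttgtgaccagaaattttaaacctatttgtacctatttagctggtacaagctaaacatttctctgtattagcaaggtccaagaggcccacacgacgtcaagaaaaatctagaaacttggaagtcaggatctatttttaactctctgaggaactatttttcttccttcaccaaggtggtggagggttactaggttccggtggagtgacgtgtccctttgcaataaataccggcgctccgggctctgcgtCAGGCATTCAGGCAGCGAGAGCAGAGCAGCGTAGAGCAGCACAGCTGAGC
Malat1 library 1 summit: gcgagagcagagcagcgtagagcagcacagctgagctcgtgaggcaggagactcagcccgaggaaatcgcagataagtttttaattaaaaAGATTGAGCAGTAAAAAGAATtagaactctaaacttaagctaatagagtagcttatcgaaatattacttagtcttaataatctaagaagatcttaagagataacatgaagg
Neat1 library 2 summit: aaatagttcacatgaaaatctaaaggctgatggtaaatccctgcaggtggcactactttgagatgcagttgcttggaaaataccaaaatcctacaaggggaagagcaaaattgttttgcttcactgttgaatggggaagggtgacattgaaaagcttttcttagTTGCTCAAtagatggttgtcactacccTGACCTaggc

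The Neat1 gene body runs from 5845480, its start, down to 5824708 on chromosome 19 of mm10. The long transcript (NR_131212.1) has 20771 bp and the short one (NR_003513.3) has 3185 bp, each in 1 exon. In library 1 a single peak of 25529 bp, from 5825413 to 5850941, covered the gene from 5461 bp upstream of the start site to 20067 bp downstream of it. Its fold enrichment was 32.0, and its summit lay 30 bp upstream of the start site. The peak was the widest of its library and had the 16th highest fold enrichment of 83787 peaks.

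In library 2 the same stretch was broken into 10 peaks. The widest, 10022 bp from 5836390 to 5846411, crossed the start site and had a fold enrichment of 20.7, the 20th highest of 28535 peaks, with its summit 2269 bp downstream of the start, inside the part that both isoforms share. The next, 3826 bp wide and upstream of the start site, had a fold enrichment of 12.3 and a summit 1246 bp upstream. The other 8 peaks lay along the long-only part of the gene, were 135 to 1902 bp wide and had fold enrichments between 2.58 and 7.87. Thus the strongest point was 30 bp from the start site in library 1 and further into the gene in library 2, and the summits were 2299 bp apart.

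**Figure D1:**
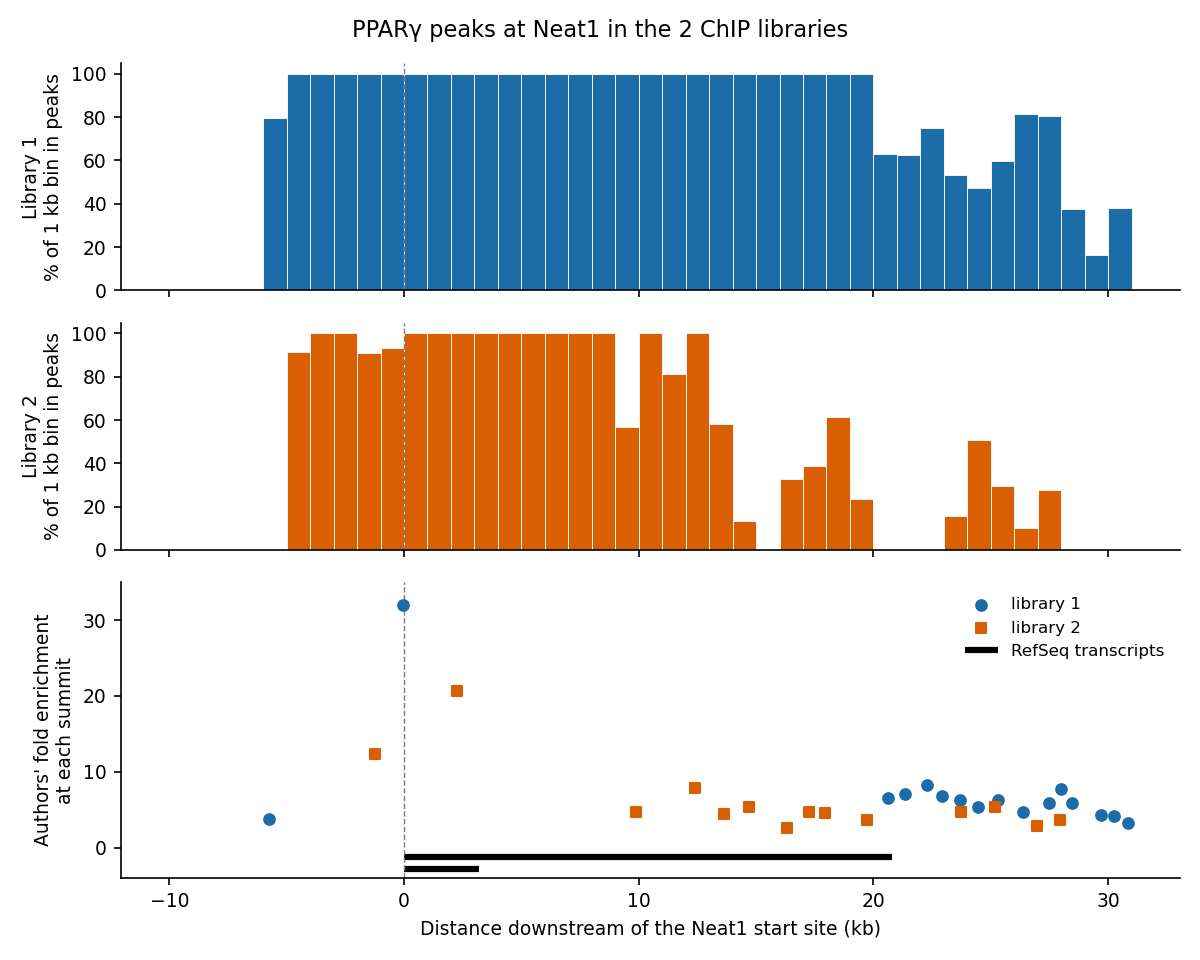
Percent of each 1 kb bin inside peaks of library 1 (upper panel) and library 2 (middle panel), and the authors' fold enrichment at every peak summit (lower panel, circles library 1, squares library 2), against the distance downstream of the Neat1 start site in kb. Black lines mark the RefSeq long and short transcripts, and the dashed line marks the start site. Library 1 is unbroken across the gene, and library 2 thins along the far part of the long transcript.

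Coverage of Neat1 differed along its length. The short isoform lay 100% in peaks of library 1 and 100% in peaks of library 2. The part that only the long isoform has, 17588 bp, lay 98.7% in peaks of library 1 and 65.3% in peaks of library 2. Over the whole gene body the shares were 98.9% and 70.6%, and 96.6% lay in a shared region. That shared region depends on merging any overlapping peaks, and with a reciprocal overlap of 50% between the libraries, 0% of the Neat1 body was in one. So the libraries gave the same cover over the 5′ part and parted over the 3′ part.

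The signal also extended upstream of Neat1. The 5493 bp between the Neat1 start site and the RefSeq end of Frmd8, the next gene on the same strand, lay 99.4% in peaks of library 1 and 86.6% in peaks of library 2. The body of Frmd8 lay 1.95% in peaks of library 1 and 0% in peaks of library 2. In the GENCODE annotation this stretch holds Frmd8os, an antisense gene on the plus strand that starts 143 bp from the Neat1 start and lay 97.9% and 80.0% in peaks of libraries 1 and 2. The GENCODE model of Frmd8 reaches further towards Neat1, and 6.70% and 2.72% of it lay in peaks of libraries 1 and 2. The peaks carry no strand, so the cover of Neat1 upstream sequence and of Frmd8os cannot be told apart.

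The downstream side of Neat1 was patchy. Gm27702, a small RNA gene of 56 bp directly beyond the 3′ end of Neat1 in GENCODE, lay 0% in peaks of either library. The 4 shared regions in the downstream flank were 384 to 1161 bp wide, with fold enrichments of 5.92 to 7.70 in library 1 and 2.82 to 5.35 in library 2. The 10 one-library peaks at Neat1, on either side of it, were all from library 1, with fold enrichments of 3.26 to 8.29. Of them, 1 lay inside the last part of the gene and 1, with a fold enrichment of 3.83, in the upstream flank. No peak of library 2 at Neat1 lacked a partner in library 1.

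Malat1 runs from 5802672, its start, down to 5795690 (NR_002847.3, 6983 bp, 1 exon). One peak covered the whole gene in each library. It was 11688 bp wide with a fold enrichment of 27.0 in library 1, and 10964 bp wide with a fold enrichment of 21.5 in library 2. Together with a peak of 225 bp from library 2 they made a shared region of 11701 bp, from 5792640 to 5804340. By fold enrichment the peak ranked 29th of 83787 in library 1 and 16th of 28535 in library 2, and by width it ranked 6th and 2nd.

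The highest points at Malat1 lay close to the start site in both libraries, 114 bp downstream in library 1 and 265 bp downstream in library 2, 151 bp apart. The shared region reached from 1668 bp upstream of the start site to 10032 bp downstream, past the 3′ end of the gene. The gene body lay 100% in peaks of library 1 and 100% in peaks of library 2, and so did the 58 bp of Mascrna, the gene of the small RNA cut from the Malat1 3′ end. Over the Malat1 body, unlike the far part of Neat1, both libraries gave full cover, whereas the 10 kb flanks differed, with 49.96% of the upstream flank in peaks of library 1 and 30.02% in peaks of library 2, and 52.4% and 28.7% of the downstream flank. With a limit of 100 bp between summits, 0% of the Malat1 body was in a shared region.

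**Figure D2:**
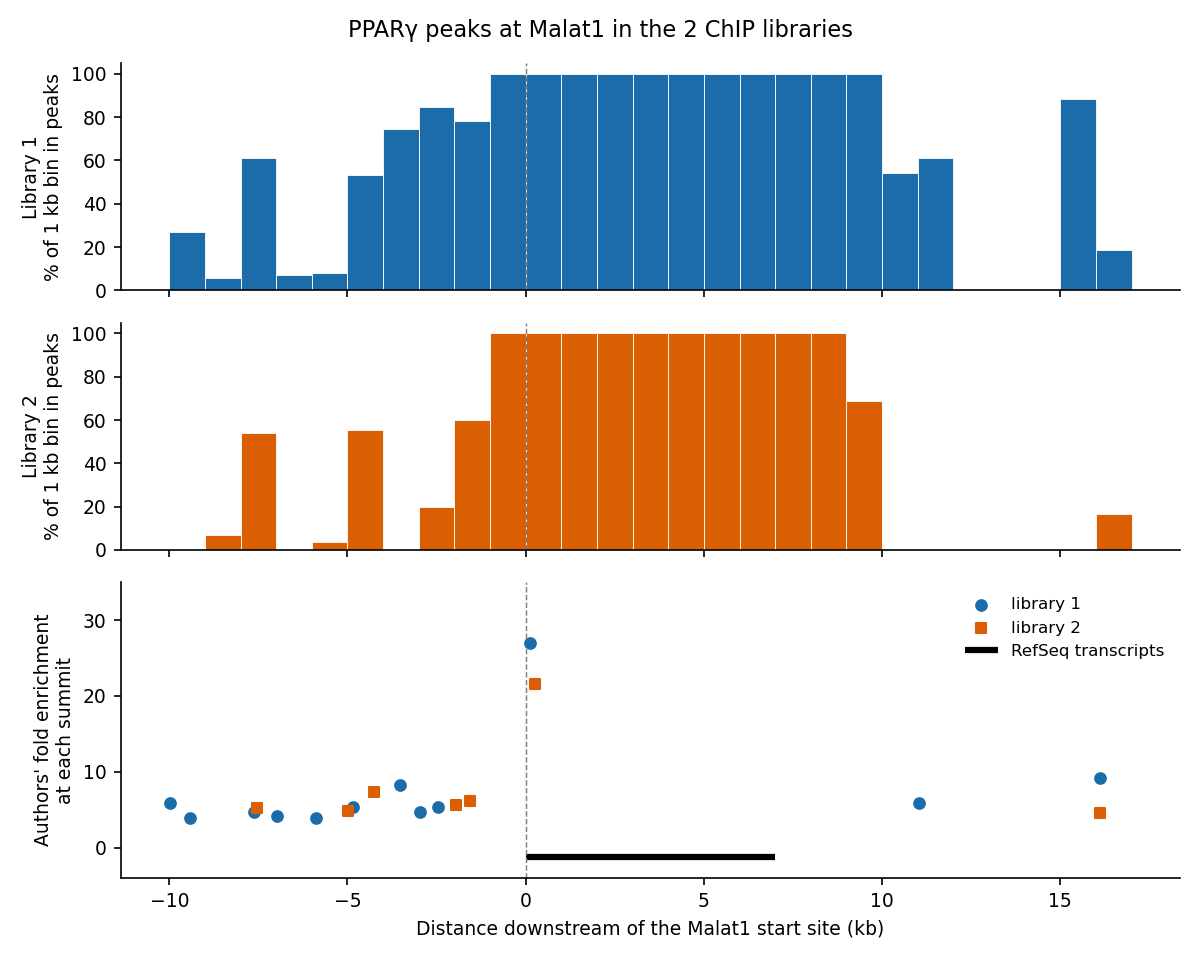
Percent of each 1 kb bin inside peaks of library 1 (upper panel) and library 2 (middle panel), and the authors' fold enrichment at every peak summit (lower panel, circles library 1, squares library 2), against the distance downstream of the Malat1 start site in kb. The black line marks the RefSeq transcript, and the dashed line marks the start site. Both libraries cover the whole gene, and the highest summits, at fold enrichments of 27.0 and 21.5, lie just inside the start site.

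Of the other 5 shared regions at Malat1, 4 lay upstream and 1 downstream. They were 430 to 1140 bp wide, with fold enrichments of 4.74 to 9.18 in library 1 and 4.52 to 7.31 in library 2. The region farthest downstream (5786481 to 5787558) had its summit at the same base in both libraries, 16113 bp from the Malat1 start, with fold enrichments of 9.18 in library 1 and 4.52 in library 2. The 6 one-library peaks were all from library 1, with fold enrichments of 3.85 to 5.92. The flanking regions of each gene were thus below its main peak in fold enrichment in both libraries.

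The 10 kb limit fell inside a run of weaker peaks. Between the genes, the last library 1 peak within reach of Neat1 lay 9.94 kb from the gene (fold enrichment 3.26), and the first one beyond lay 11.2 kb away (5.04). For Malat1 on its upstream side the library 1 values were 9.92 kb (5.92) inside the limit and 10.6 kb (5.04) outside it. On the far sides the nearest library 1 peaks outside the limit were 29.4 kb upstream of Neat1 (4.15) and 12.1 kb downstream of Malat1 (2.78). In library 2 the peaks just inside and just outside were 6.95 kb (3.60) and 14.0 kb (5.27) downstream of Neat1, and 7.46 kb (5.27) and 14.9 kb (3.60) upstream of Malat1. On the far sides of library 2 they were 1.09 kb (12.3) and 32.0 kb (6.10) upstream of Neat1, and 9.04 kb (4.52) and 15.8 kb (5.45) downstream of Malat1.

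The 22035 bp between the genes lay 49.3% in peaks of library 1, 19.7% in peaks of library 2 and 33.7% in shared regions. Over the whole of chromosome 19 the same shares were 2.10%, 1.01% and 1.42%. The genes outside the pair had much less. Within 50 kb, Ltbp3, Frmd8 and Tigd3 held 0 shared regions in their RefSeq bodies, and the mitochondrial carrier gene Slc25a45 held 1, with 5.72% of its body in it. The cover was therefore dense over both noncoding genes and thinner between them, though still above the chromosome 19 shares. It stopped short of the bodies of most flanking genes.

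Both main regions stood at the wide end of the series. Of 20233 shared regions, 22 were at least 10 kb wide, or 0.109%, and both genes lay under 1 of them. The Neat1 region was the widest, with the next at 17863 and 16164 bp, and the Malat1 region was the 12th widest. The median width of all shared regions was 626 bp. Ranked by the lower of the percentiles of fold enrichment in the 2 libraries, the Malat1 region was the 14th and the Neat1 region the 17th of 20233. These ranks are what the pair was picked for.

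**Figure D3:**
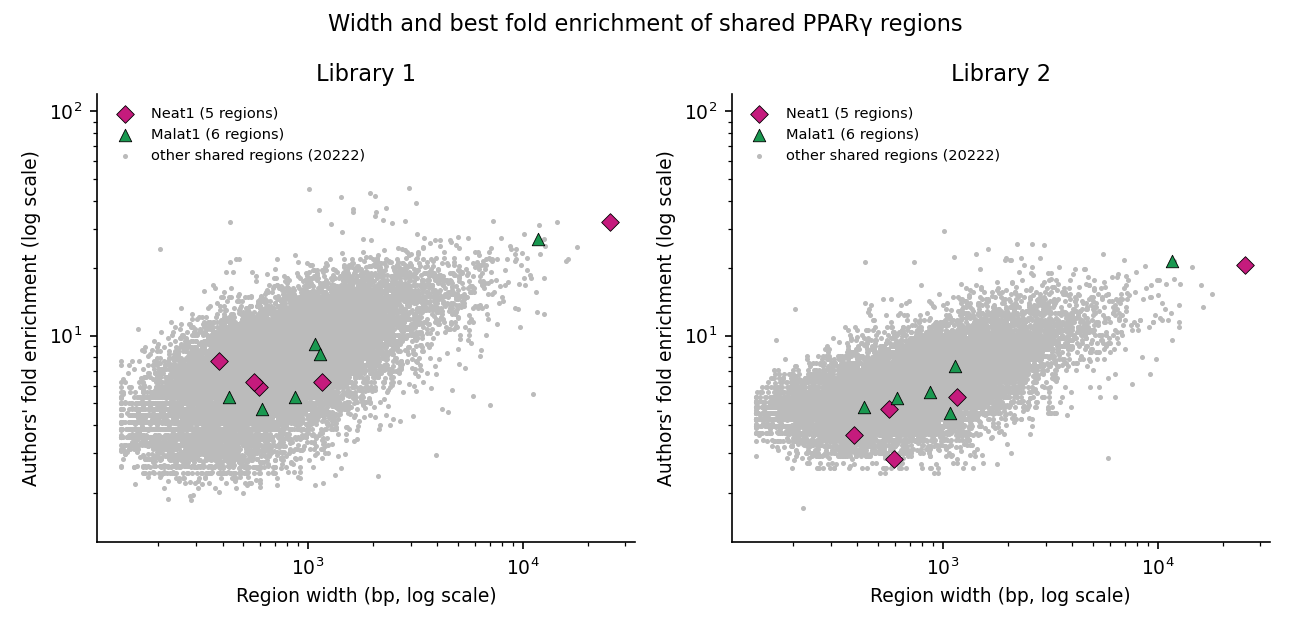
Width of each shared region in bp (horizontal axis, log scale) against the authors' best fold enrichment in it (vertical axis, log scale), in library 1 (left) and library 2 (right). Diamonds are the 5 regions at Neat1, triangles the 6 at Malat1 and grey points all other shared regions. The main region of each gene lies at the right edge, and the flanking regions of both genes lie within the cloud.

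Neat1 and Malat1 were both among the 24.6% of RefSeq genes with a shared region in the body or within 10 kb, by the way they were chosen. Cover of nearly the whole gene body was rarer. Of 26298 genes of at least 5 kb, 0.0875% had at least 90% of their body in shared regions, and Neat1 and Malat1 were both among these 23 genes. Neat1 ranked 7th of the 26298 in library 1 and 22nd in library 2, and Malat1, at 100%, ranked 1st in both, level with 5 other genes in library 1 and alone in library 2. Among the 12600 genes between 0.5 and 2 times the length of Neat1, the median share in peaks was 0% in each library and Neat1 ranked 1st in library 1 and 4th in library 2.

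The genes most like Neat1 in the share of the body under peaks were chosen among genes of 0.5 to 2 times its length by the smallest distance over the 2 libraries. They were Plet1 (94.6% in library 1 and 71.4% in library 2), its antisense neighbour Plet1os (87.5% and 72.1%), the small Maf transcription factor gene Maff (92.7% and 80.6%), the β-glucan receptor gene Clec7a (83.1% and 60.8%) and the sialomucin gene Cd164 (90.9% and 52.9%). Plet1 and Plet1os overlap and share their peaks. None of these genes reached the best fold enrichment of Neat1, since their highest values were 13.4 to 21.9 in library 1 and 13.4 to 16.2 in library 2.

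The genes most like Malat1 were Btg2, an antiproliferative gene (100% in library 1 and 96.4% in library 2), Mpeg1, which encodes the macrophage pore-forming protein perforin-2 (96.1% and 98.7%), Vim, which encodes vimentin (100% and 94.7%), the transcription factor gene Klf6 (100% and 93.7%) and Txnip, which encodes a thioredoxin-binding protein (96.8% and 94.5%). Their best fold enrichments, 11.6 to 24.97 in library 1 and 9.82 to 15.4 in library 2, were below those of Malat1. All 5 are protein-coding genes.

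Long genes that belong with Neat1 and Malat1 by function or by kind were less covered, and some short ones were not. Of 83 listed genes of at least 5 kb, 1 had 50% or more of its body in peaks of both libraries. This was Tmsb4x, which encodes thymosin β4, with 50.9% in library 1 and 50.3% in library 2, singled out here after its values were seen. Neat1 had 98.9% and 70.6%, and Malat1 had 100% and 100%. Of the 38 shorter listed genes, 8 had 50% or more in both libraries, 2 of them among the 20 short genes of the list of other long noncoding RNAs. Those were Rmrp, the RNA component of RNase MRP, with 100% and 100% of its 0.275 kb, and Snhg8, a snoRNA host gene, with 67.5% and 97.1% of its 0.785 kb. Others were Ftl1, the ferritin light chain gene (100% and 84.6%), the chaperone gene Hspa8 (82.4% and 90.5%) and the actin gene Actb (78.4% and 77.4%). These 5 were also named after their values were seen. Of these 5, Rmrp is shorter than the median library 2 peak of 285 bp. Snhg8, Ftl1 (1.94 kb), Hspa8 (3.93 kb) and Actb (4.86 kb) are all longer than the median shared region of 626 bp. In all, 96 of 121 matched genes of the 5 lists had a shared region in or within 10 kb of the gene, against 24.6% of all 49554 RefSeq genes. That share is the one to set beside each list count below.

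**Figure D4:**
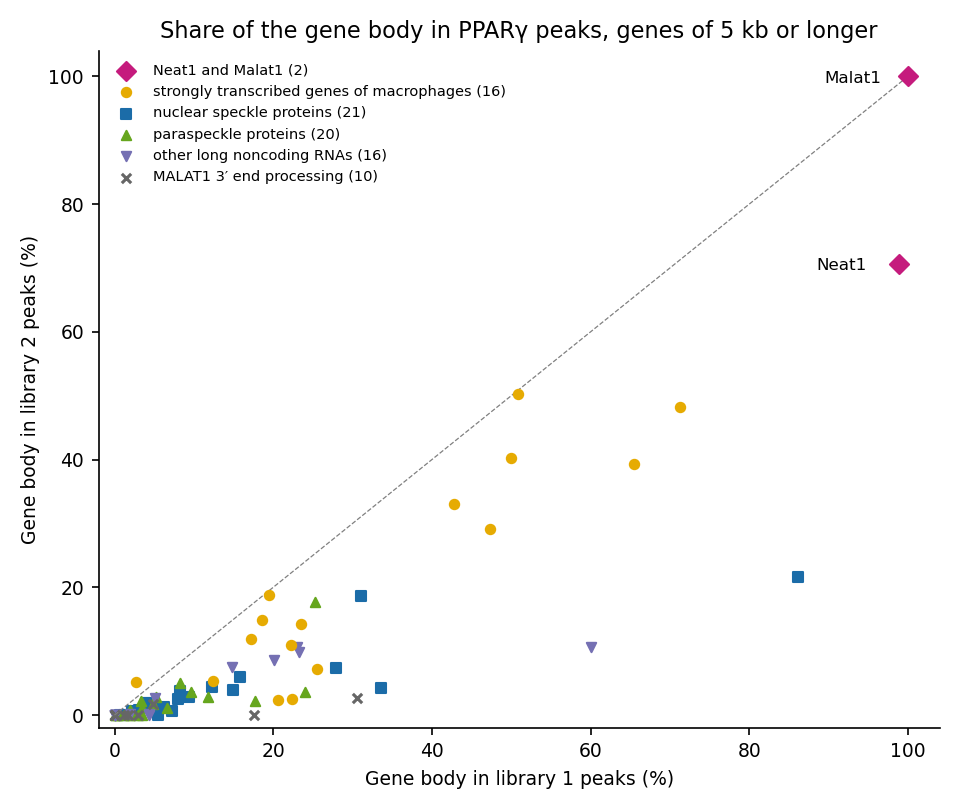
Percent of the RefSeq gene body in peaks of library 1 (horizontal axis) and of library 2 (vertical axis) for Neat1, Malat1 and the 83 listed genes of at least 5 kb, with 1 point per gene and the line of equal shares dashed. Malat1 sits at 100% in both libraries and Neat1 at 98.9% and 70.6%, above every listed gene in both libraries.

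Among paraspeckle proteins, 16 of 20 genes had a shared region, and the median share of the body in peaks was 3.44% in library 1 and 1.12% in library 2. Hnrnpa1, which encodes an RNA-binding protein of the hnRNP family, had 25.3% and 17.7% of its body in peaks. Sfpq, one of the proteins that Neat1 RNA gathers, had 11.8% and 2.80%, with best fold enrichments of 14.5 and 8.70. Hnrnpul1, a gene of another RNA-binding protein, had 8.20% and 5.07%. Hnrnpr, Nono, Nudt21 and Smarca4 had no shared region.

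All 22 genes of nuclear speckle proteins had a shared region, with median shares of 7.60% in library 1 and 2.25% in library 2. Srrm2, whose protein is a scaffold of the speckle, had 15.0% and 3.91% of its body in peaks, and Srsf3, a splicing factor gene, had 31.1% and 18.6%. Srrm1 and Rbm25, a splicing coactivator and a splicing regulator gene, had 1.19% and 0%, and 2.21% and 0.683%. The best fold enrichments were 14.8 and 10.7 for Srrm1, in a region near the gene but outside its body. They were 16.3 and 10.4 in or near Rbm25. The speckle and paraspeckle genes named here thus had lower shares and lower fold enrichments than Neat1 and Malat1 in both libraries.

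Of the genes for the Malat1 3′ end, RNase P subunits, tRNA end enzymes and the triple-helix-binding methyltransferase Mettl16, 5 of 13 had a shared region, and the median shares of the body were 1.72% in library 1 and 0% in library 2. This count was 12 of 13 from the peaks of library 1 alone, 6 from those of library 2 alone, and 2 with a reciprocal overlap of 50% or with the gene bodies only. Mettl16 had a region near it with fold enrichments of 15.7 and 12.1 and 1.13% and 0% of its body in peaks. Rpp14 (its shared regions all outside its body), Pop5 and Rpp38, all RNase P subunit genes, had best fold enrichments of 10.7 and 7.03, 5.33 and 5.07, and 7.41 and 4.79. Pop1, Pop4, Pop7 and Rpp21, also subunit genes, had none.

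Other long noncoding RNA genes had a shared region in 23 of 36 cases, and the median shares of the body were 9.76% in library 1 and 0.0822% in library 2. Pvt1, a long gene next to Myc, had best fold enrichments of 19.3 and 17.9, but 5.08% and 2.74% of its body in peaks. Lncpint had 22.9% and 10.6%, Mir22hg, the host of miR-22, had 60.0% and 10.7%, and Morrbid, which acts on myeloid cell lifespan, had 14.8% and 7.46%. Dancr, Dnm3os, Firre and H19 had no shared region. These 8 genes all had lower shares than Neat1 and Malat1 in both libraries. Of the short genes of the same list given above, Rmrp was level with Malat1, and Snhg8 exceeded only Neat1, in library 2 only.

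Genes known to be strongly transcribed in macrophages came nearest, with a shared region at 30 of 30 and median shares of 41.1% in library 1 and 36.1% in library 2. The lists differ in gene length, so neither their counts nor their shares are matched for it. The median length was 5.23 kb here, against 27.4 kb for paraspeckle and 22.4 kb for speckle protein genes. It was 11.5 kb for the genes for the Malat1 3′ end and 3.33 kb for the other long noncoding RNA genes. Fth1, which encodes ferritin heavy chain, had 100% and 88.9% of its 4.51 kb in peaks, with fold enrichments of 31.1 and 21.5, and its region ranked 15th of 20233, between those of Malat1 and Neat1. Plin2, a lipid droplet coat gene, had 47.4% and 29.2%, and Chil3, a chitinase-like gene of AMs, had 23.5% and 14.2%. The transcription of Neat1, Malat1 and these genes was not measured in these libraries, and its part in the cover was not tested, nor was that of gene length.

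Fixed words were searched on both strands in the 201 bases around a summit. Their shares are given over the best summit of all 20233 shared regions and over 32841 RefSeq promoters of 300 bases. At Malat1 the library 1 window, the library 2 window and the promoter printed above held no AGGTCA, the word that also makes up each side of a DR1. They held none of the words of the macrophage lineage factor PU.1 (GAGGAAGT), of the CEBP family (TTGCNNAA) and of the AP-1 family (TGANTCA). The same was true of the word of RUNX factors, TGTGGT, that of the SP and KLF factors, GGGCGG, the E-box word of bHLH factors, CACGTG, and the word of the TATA box, TATAAA. Their best match to a DR1 had 4 mismatches in its 12 letters. No match says only that these letters are not in these windows. Each of these words was also absent from most windows of the series. The AP-1 word was present at 9.98% of shared regions and in 7.81% of promoters. For the SP and KLF word the shares were 10.6% and 35.7%, and for the E-box word 4.33% and 7.15%. For the RUNX word they were 19.8% and 16.8%, and for the PU.1 word 6.83% and 3.20%.

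At Neat1 the library 2 window held 1 CEBP word and 1 AGGTCA, both in capitals above. AGGTCA was present at 14.9% of shared regions and in 16.3% of promoters, and the CEBP word at 15.1% and in 10.8%. The library 1 window, which spans the Neat1 start site, held 1 TATAAA, a word found at 14.5% of shared regions and in 13.6% of promoters, and none of the other words. Its G and C content was 53.7% with 7 CpG, whereas the library 2 window inside the gene had 41.3% with 0 CpG. At Malat1 the windows of libraries 1 and 2 had 38.3% and 33.8%, with 6 and 2 CpG. The median over all shared regions was 45.3% with 2 CpG.

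An exact DR1 lay at 0 of the 49 member summits of both libraries, and at 0.0643% of all shared regions. With up to 2 mismatches it lay at 1 of 16 library 1 summits at Neat1 and 1 of 12 at Malat1, at 0 of the library 2 summits of either gene, and at 4.57% of all shared regions. Both matches are shown because they are the closest in letters to a DR1 among the summit windows searched, with capitals for the letters that fit the DR1 and for its spacer.
Neat1 chr19:5822571-5822583, plus strand: AGGcgAGAGGTCA
Malat1 chr19:5810313-5810325, plus strand: AtGTCACAtGTCA
The Neat1 match lay in a one-library peak of library 1 with a fold enrichment of 6.81, downstream of the gene, with its centre 34 bp from the summit. The Malat1 match lay in a library 1 peak with a fold enrichment of 4.74 inside a shared region, 37 bp from a summit that was 7611 bp upstream of the start site. Neither lay under the wide peaks, of which only the summit windows were searched.

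Among the other words, the RUNX word TGTGGT had the highest total, 15 of the 49 member summits, and is given here for that. TATAAA was found at 10 of the 49, AGGTCA at 5, and the CEBP, AP-1, SP and KLF, and E-box words at 2 each. The RUNX word was found at 7 of 16 summits of library 1 and 6 of 14 summits of library 2 at Neat1. At Malat1 it was found at 1 of 12 and 1 of 7. Its share over all shared regions was 19.8%, but that counts best summits only. The member counts take every summit, one-library peaks included. Summits of one gene lie close together and recur in both libraries, so the windows are not independent and this is a count only. The PU.1 word was found at 0 of the 49 summits and at 6.83% of shared regions.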

How the data were processed

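PPARγ HT-ChIPmentation of AMs from WT mice was analysed as 2 ChIP libraries. The 2 input libraries were not used here. Reads were trimmed (cutadapt) and aligned to mm10 (Bowtie2) by the authors, whose processing notes also name bcl2fastq 2.20.0.422, CASAVA and SAMtools. They removed duplicates and poor or improperly paired alignments, and called peaks with MACS3, one library at a time, over input at a q of 0.05. For each peak the deposited lists hold the authors' fold enrichment (a ratio on a linear scale), the p-value and the q-value as −log10, a score (the −log10 q-value times 10, cut to a whole number), and the summit. A broad signal can be called as 1 peak or as several, so peak number and width depend on the caller. Depth is not in the files, so no interval is given.

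Peaks were merged and measured with Python 3.11.15, NumPy 2.4.6, pysam 0.24.0 and SAMtools 1.23.1. All peak ends lie within the GRCm38 chromosomes. Gene bodies, transcripts and promoters came from RefSeq (GRCm38.p6), and GENCODE was an alternative. Of 123 list entries, 121 matched a RefSeq gene (Mir142hg and Gm26917 did not). The steps were tested on simulated data. The named genes are Neat1 and Malat1, every gene within 50 kb, up to 4 list members ranked best and up to 4 without a region, first in the alphabet, for every list, and the 5 genes most alike in cover. A few genes named by this rule are left out of the text. The members, lists and words were chosen with earlier results of these data known. No test was run, because the members were selected on these peaks and there is 1 group. The alternatives were q up to 0.001, fold enrichment from 5 upwards, a reciprocal overlap of 50%, summits within 100 bp, each library alone, other flanks and other gene models.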

Additional observations from a re-analysis of the deposited data

How the results depend on the processing

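The main region at Neat1 was lost with either stricter merging rule, and that at Malat1 only with close summits. At a reciprocal overlap of 50%, 100% of the Malat1 body stayed in regions, the widest of 11688 bp. With a reciprocal overlap of 50% the share of the Neat1 body in regions was 0%, since the widest library 2 peak (10022 bp) is under 50% of the library 1 peak (25529 bp), and the widest region left at Neat1 had 1105 bp. With summits at most 100 bp apart the shares were 0% at Neat1 and 0% at Malat1, whose summits were 2299 and 151 bp apart, and the widest regions left had 562 bp and 1078 bp. With 1 library alone (leaving out each replicate in turn), the share of the Neat1 body was 70.6 to 98.9%, the widest region had 10022 to 25529 bp at Neat1 and 10964 to 11688 bp at Malat1, and there were 14 to 16 regions at Neat1 and 7 to 12 at Malat1. Shared regions numbered 5 at Neat1 and 6 at Malat1. They numbered 2 and 3 at a fold enrichment of at least 5, 2 and 2 at a reciprocal overlap of 50%, 2 and 2 with close summits, 1 and 1 in the gene bodies only, and 10 and 11 with flanks of 25 kb, where the windows of the genes overlap. With flanks of 5 kb Neat1 had 3. At a q of 0.001 Neat1 had 4, and neither that nor GENCODE gene models moved another of these values beyond 1.5 times. Of 45 list counts, 37 stayed within 1.5 times. Of the 8 that did not, 5 were those of the genes for the Malat1 3′ end (2 to 12 of 13, against 5). No paired analysis was possible because the ChIP and input libraries share replicate numbers but no file of the inputs was used here, and no test was run. With 2 libraries and no read counts, neither the depth behind the 3′ part of Neat1 nor the spread between mice can be given.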

Other observations

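GENCODE places further small genes inside the bodies of Neat1 and Malat1, and each lay 100% in peaks of both libraries. At Neat1 these are Gm27533, Gm27505 and Gm28006, models of 152, 110 and 122 bp that lie in the part both isoforms share. At Malat1 they are Gm27694, a model of 86 bp, and Gm37376, an unclassified model of 453 bp on the opposite strand close to the start site. The peaks carry no strand, so these models cannot be told apart from the long genes around them.

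The bodies of the genes differed in base composition. G and C made up 47.3% of the Neat1 body and 42.5% of the Malat1 body, against 42.7% of chromosome 19 as a whole. Neat1 held 320 CpG in 20773 bp and Malat1 held 92 in 6983 bp, so the counts also reflect length.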
